A study of Mus musculus with 12 samples.

Results

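Purine signalling at the surface of brain macrophages was followed through 10 genes: the P2Y receptor genes P2ry12, P2ry13 and P2ry6, the P2X channel genes P2rx4 and P2rx7, the adenosine receptor genes Adora3, Adora2a and Adora2b, and the ectonucleotidase genes Entpd1 and Nt5e. All 10 were picked by symbol from a table of 36491 genes. Each was in it, and all 10 passed the filter on low counts that left 18875 genes for testing. ATP and ADP leave stressed or damaged cells and act as danger signals. ATP opens P2X channels, while ADP and UDP act on G protein-coupled P2Y receptors. The product of Entpd1, CD39, strips ATP and ADP to AMP, the product of Nt5e, CD73, turns AMP into adenosine, and adenosine is read by its own receptors. Microglia use this system to extend processes toward injury, to engulf debris and to release interleukin-1β.

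The libraries were RNA-seq of cells that magnetic CD11b beads had enriched from brains of male wild-type C57BL/6J mice aged 6 months. There were 4 groups of 3 libraries: unshielded mice given LPS, unshielded mice without LPS, shielded mice given LPS and shielded mice without LPS. The shield covered the head during the irradiation for a bone marrow transplant, which mice of every group received. Mice of every group also ate food with PLX5622, which blocks the CSF1 receptor that microglia need to survive, for 2 weeks and then normal chow for 6 weeks. They were injected in the abdomen with 50 µg of lipopolysaccharide (LPS), a component of bacterial cell walls sensed by macrophages, or received saline instead, and the sort followed after 6 hours. The series asks how macrophages that enter the brain from outside respond to such a challenge and how they differ from microglia. The CD11b beads do not separate the 2 origins, so each library can hold both. No group without a transplant or without PLX5622 was analysed here.

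Library totals were 56776710 to 60495968 counts in unshielded LPS libraries, 18090977 to 40792878 in unshielded libraries without LPS, 29794946 to 40730784 in shielded LPS libraries and 28770354 to 42931839 in shielded libraries without LPS. The treatment field gives LPS for shielded libraries 2 and 3 whose titles say no LPS, and the groups here follow the titles. The mean log2 CPM (reads of a gene scaled to the size of its library) of 10 LPS-response genes was 8.10 to 8.66 in the shielded LPS libraries, against 2.94 to 3.75 in the 3 libraries titled as shielded without LPS. It was 7.34 to 7.89 in unshielded LPS libraries, against 3.15 to 4.51 in unshielded libraries without LPS. Defining microglia genes were present throughout: the summed level of 7 markers, Tmem119, Cx3cr1, Sall1, Fcrls, Siglech, Gpr34 and Olfml3, was 4960 to 5730 CPM in unshielded LPS libraries, 6910 to 8480 in unshielded libraries without LPS, 7800 to 8780 in shielded LPS libraries and 11600 to 13600 in shielded libraries without LPS. Of these 7, 5 fell and 1 rose with LPS in unshielded mice, where 18.8% of all tested genes fell and 24.3% rose. In shielded mice 6 fell and 1 rose, where 35.1% of all genes fell and 32.4% rose. In unshielded against shielded mice 5 of the 7 were lower and 0 higher, both without LPS and after it. Of all genes 6.85% were lower without LPS and 25.6% after it. The sum of 6 genes of marrow-derived brain macrophages (Ms4a7, Apoe, Clec12a, Ccr2, Mrc1 and Pf4) was 80300 to 105000 CPM, 58300 to 88700, 2610 to 4460 and 6810 to 24000 in the same order of groups. In unshielded against shielded mice 5 of the 6 were higher and 0 lower, without LPS (median log2 fold change 1.89) and after it (median 3.01). Of all genes 3.98% were higher without LPS and 19.1% after it. With LPS all 6 fell in shielded mice (median -1.84), and 1 rose and 2 fell in unshielded mice. T cell markers summed to at most 0.52 CPM, with Cd3e and Cd2 at 0 in the shielded LPS libraries, and meningeal fibroblast markers to at most 8.50 CPM. In the same order of groups 5 astrocyte markers summed to 165 to 233 CPM, 219 to 263, 252 to 309 and 203 to 247. The single astrocyte markers did not all follow these sums. With LPS 2 of the 5 rose and 2 fell in shielded mice (median log2 fold change -0.92), and 1 rose and 1 fell in unshielded mice. After LPS 3 were higher and 1 lower in unshielded than in shielded mice (median 1.17), and without LPS 0 were higher and 1 lower. The sum of 5 endothelial markers was 105 to 163 CPM, 206 to 230, 109 to 145 and 144 to 244. The sum of 6 neutrophil markers was 431 to 813 CPM, 303 to 385, 595 to 712 and 525 to 657, and 4 of the 6 rose with LPS in unshielded mice and 1 in shielded mice. Without LPS 3 of the 6 were lower and 0 higher in unshielded than in shielded mice. The sum of 5 monocyte markers was 265 to 405 CPM, 132 to 161, 127 to 209 and 113 to 137. Of these 5, 4 rose and 1 fell with LPS in unshielded mice, and 2 rose and 1 fell in shielded mice. Oligodendrocyte markers, 5 in number, summed to 989 to 1770 CPM, 1630 to 2100, 366 to 1220 and 1590 to 2540. For 5 neuron markers the sum was 83.1 to 151 CPM, 188 to 220, 25.8 to 121 and 137 to 242. All 5 neuron and all 5 oligodendrocyte markers fell with LPS in shielded mice, and none of either list passed the test in unshielded mice. Of the 5 endothelial markers 3 fell and 1 rose with LPS in unshielded mice, and 2 fell and 1 rose in shielded mice. The part of these cell types in the results below was not tested.

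LPS moved the 10 genes in both directions. Adenosine receptor genes and P2ry6 rose, while the ADP receptor genes P2ry12 and P2ry13 and the channel gene P2rx7 fell, in unshielded and in shielded mice alike. In unshielded mice 5 of the 10 rose with LPS, where 24.3% of all tested genes rose, and 3 fell, where 18.8% fell (edgeR quasi-likelihood test, adjusted p under 0.05). In shielded mice 5 rose, where 32.4% of all genes rose, and 4 fell, where 35.1% fell, so that the share of the 10 that fell there was close to that of all genes. The median log2 fold change with LPS over the 10 genes was 0.45 in unshielded mice and 0.66 in shielded mice, beside -0.06 and -0.14 over all tested genes. Between unshielded and shielded mice without LPS, 1 of the 10 was higher in unshielded mice and 4 were lower, where 3.98% and 6.85% of all genes were. After LPS 1 was higher and 5 were lower, where 19.1% and 25.6% of all genes were. The medians over the 10 were -0.14 without LPS and -0.15 after LPS, beside -0.0032 and 0.0715 over all genes. None of the 10 passed the test of whether the LPS effect differed between unshielded and shielded mice, in which 4.06% of all genes had a higher and 9.25% a lower effect in unshielded mice. In the same edgeR test P2ry12, P2ry6 and P2rx4 had an unadjusted p under 0.05. The share of all genes at that looser threshold was not counted, so this is no sign of an excess. DESeq2 called P2ry12. Without shielded LPS library 3 the test of the difference called 6391 genes in place of 2512, among them P2ry6 and P2rx4. Each of the 4 groups enters 2 of the first 4 comparisons and all 4 groups enter the last, so the comparisons are not independent of each other.

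**Figure D1:**
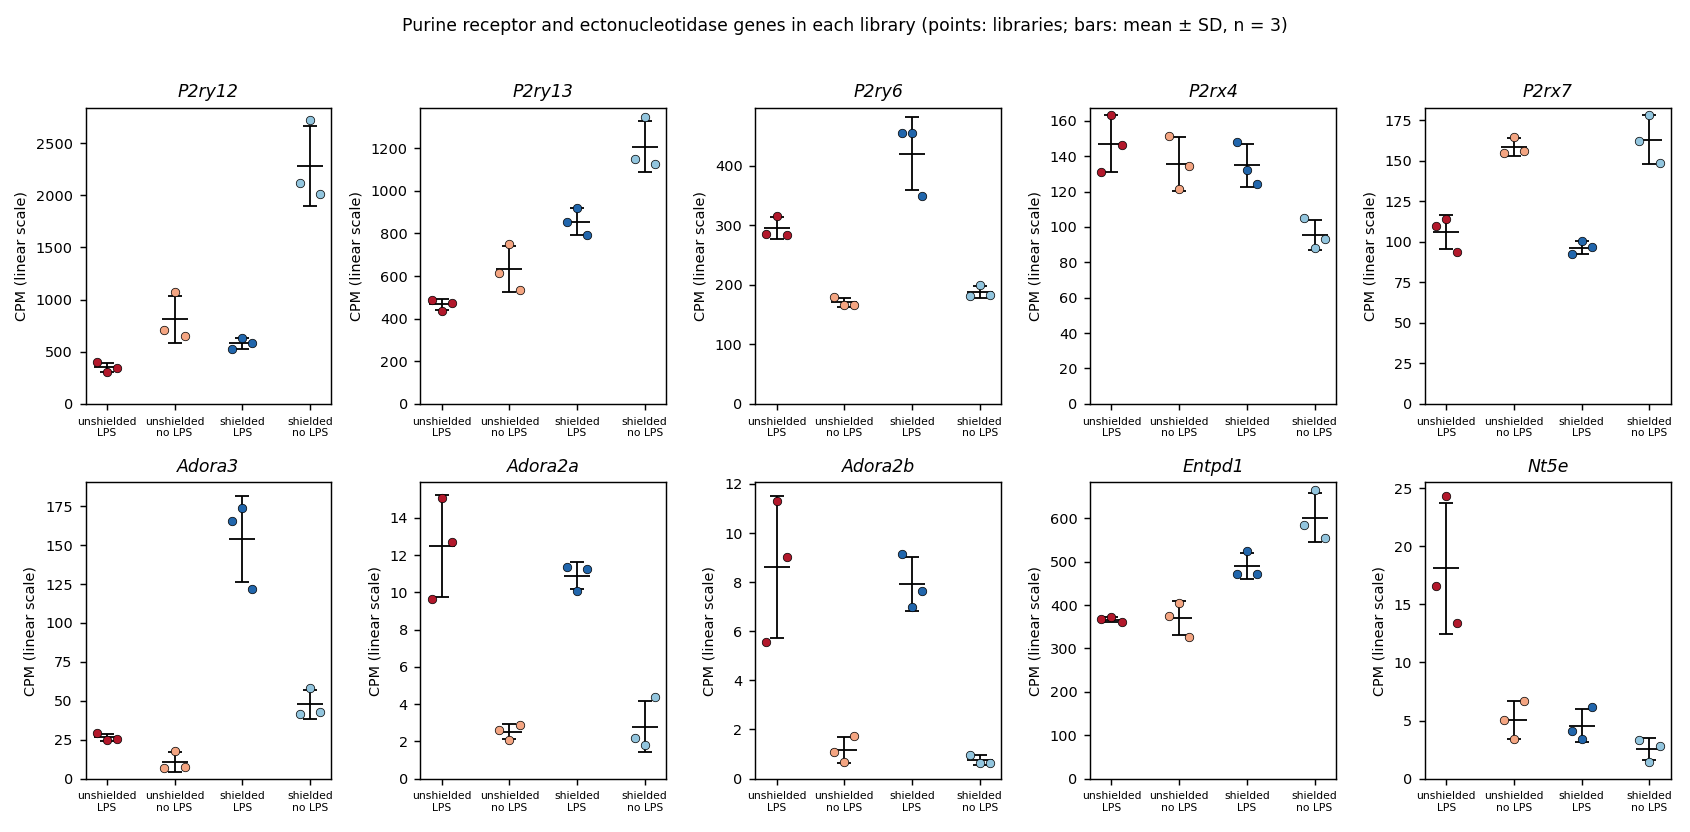
Level of each gene in CPM (linear scale, from 0) in every library of the 4 groups, with points for libraries and bars for the mean and SD of 3 libraries. P2ry12 is highest in shielded mice without LPS, Adora3 in shielded LPS mice and Nt5e in unshielded LPS mice.

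Without the 2 shielded libraries whose labels conflict, 8 of the 10 genes were called for LPS in unshielded mice, where 36.7% of the 20198 genes tested in that fit were, and 6 for LPS in shielded mice, where 41.4% were. Between unshielded and shielded mice 3 were called without LPS, where 1.45% of all genes were, and 6 after LPS, where 38.2% were. With library totals in place of TMM scaling the median log2 fold change of all genes with LPS was -0.36 in unshielded mice and -0.49 in shielded mice, and calls split into 2656 higher and 6520 lower in unshielded mice, against 4585 and 3543 with TMM. In shielded mice they split into 4042 higher and 9131 lower, against 6119 and 6619 with TMM. On that scale the log2 fold changes with LPS of P2ry13 were -0.73 in unshielded and -0.84 in shielded mice, that of P2ry6 in unshielded mice was 0.49, that of P2rx7 in unshielded mice -0.88 and that of Entpd1 in shielded mice -0.64, all still past the threshold. Each range of adjusted p-values below covers all alternatives run except grouping the 2 libraries with conflicting labels by the treatment field, whose counts stand in the closing section. Leaving both of those libraries out leaves 1 shielded library without LPS, which is assumed to vary like the other groups. Tests that use that group then rest on fewer libraries, and a lost call there does not by itself mean a smaller effect.

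**Figure D2:**
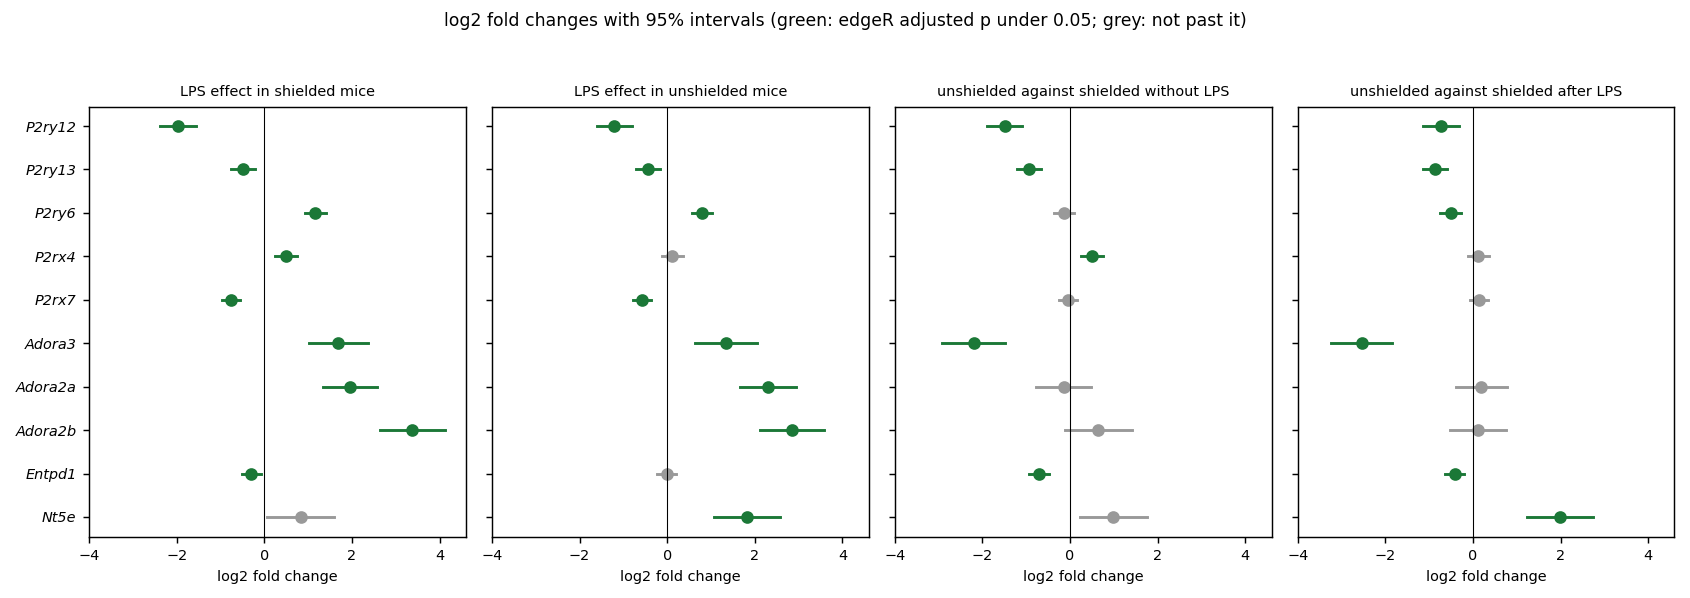
Log2 fold changes (x axis) of the 10 genes (y axis) in the 4 comparisons, with lines for 95% intervals, green where the edgeR adjusted p was under 0.05 and grey where it was not. With LPS the 3 adenosine receptor genes and P2ry6 lie above 0 and P2ry12, P2ry13 and P2rx7 below 0 in unshielded and shielded mice, and between unshielded and shielded mice Adora3 lies farthest below 0.

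P2ry12 (ENSMUSG00000036353) encodes the ADP receptor that steers microglial processes toward damaged cells, and it is widely used to mark resting microglia. It fell with LPS and was lower in unshielded mice, so that the 4 groups of libraries did not overlap at all. P2ry12 had 397, 309 and 343.5 CPM in unshielded LPS libraries, against 711, 1072 and 649.9 CPM in unshielded libraries without LPS. In shielded mice it had 524, 631 and 584 CPM with LPS, against 2115, 2718 and 2009 CPM without. Shielded libraries without LPS stood far above all others. With LPS P2ry12 fell by 1.21 ± 0.18 on the log2 scale in unshielded mice (SE; edgeR adjusted p = 0.000212) and by 1.98 ± 0.19 in shielded mice (adjusted p = 2.1e-06). In unshielded against shielded mice the log2 fold change was -1.49 ± 0.19 without LPS (adjusted p = 0.000393) and -0.73 ± 0.18 after LPS (adjusted p = 0.00673). In these bulk samples fewer cells that express a gene and less RNA of it per cell cannot be told apart. The LPS effect was smaller in unshielded mice by 0.76 ± 0.26 (95% interval 0.20 to 1.33), which did not pass the threshold (adjusted p = 0.0715). It did pass with DESeq2 (adjusted p = 0.0371), with no filter on low counts (0.0262), with a block for the replicate number (0.0443) and when unshielded library 2 without LPS was left out (0.0172), within a range of 0.0172 to 0.309 over the alternatives.

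P2ry13 (ENSMUSG00000036362), another ADP receptor gene, lies 5.4 kb from P2ry12 on chromosome 3 in the same orientation, with no protein-coding gene wholly between them. The protein-coding gene Med12l overlaps both on the opposite strand, sharing 9 exonic bases with P2ry12 and 0 with P2ry13. Med12l had 7986 counts over the 12 libraries, against 459080 for P2ry12 and 359558 for P2ry13. P2ry13 had 489, 437 and 475 CPM in unshielded LPS libraries, against 614, 749.9 and 533.5 CPM in unshielded libraries without LPS. Shielded mice had 854.5, 918 and 793 CPM of P2ry13 with LPS, against 1149, 1344 and 1126 CPM without. Every unshielded library lay below every shielded one, and with and without LPS the libraries did not overlap in either kind of mouse. P2ry13 fell with LPS less than P2ry12 did, by 0.44 ± 0.13 on the log2 scale in unshielded mice (adjusted p = 0.0141) and by 0.50 ± 0.13 in shielded mice (adjusted p = 0.00429), a contrast between the 2 genes that is described within libraries further on. Its log2 fold change in unshielded against shielded mice was -0.93 ± 0.13 without LPS (adjusted p = 0.000577) and -0.87 ± 0.13 after LPS (adjusted p = 0.000156). The difference of its LPS effects was 0.06, with a 95% interval of -0.33 to 0.45. The LPS call in unshielded mice was lost when library 2 of the unshielded LPS group (adjusted p = 0.0506) or of the unshielded group without LPS (0.0598) was left out, within a range of 0.000698 to 0.0598 over the alternatives. That in shielded mice was lost without the 2 libraries whose labels conflict (adjusted p = 0.0805; 0.00015 to 0.0805 over the alternatives).

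Upstream sequences of these neighbours and of Adora2b, the gene of the 10 with the largest LPS fold change, are given because the pair moved in the same direction by different amounts and Adora2b moved the other way. They are the 250 bases before the RefSeq start site in GRCm38.p6, read 5′ to 3′ on the gene's strand, with matches to searched letters in capitals. That of P2ry12 is the minus strand of chr3:59262986-59263235, that of P2ry13 the minus strand of chr3:59210883-59211132 and that of Adora2b the plus strand of chr11:62248734-62248983.
P2ry12: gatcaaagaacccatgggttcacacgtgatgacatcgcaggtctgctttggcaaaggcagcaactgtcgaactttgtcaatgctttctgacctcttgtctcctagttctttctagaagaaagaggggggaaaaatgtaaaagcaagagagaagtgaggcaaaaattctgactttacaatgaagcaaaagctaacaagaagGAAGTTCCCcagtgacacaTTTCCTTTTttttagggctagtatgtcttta
P2ry13: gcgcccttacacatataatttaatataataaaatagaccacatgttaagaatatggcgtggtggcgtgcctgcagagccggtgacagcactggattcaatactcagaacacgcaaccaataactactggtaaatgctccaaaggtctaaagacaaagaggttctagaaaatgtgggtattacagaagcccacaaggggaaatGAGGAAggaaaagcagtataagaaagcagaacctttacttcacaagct
Adora2b: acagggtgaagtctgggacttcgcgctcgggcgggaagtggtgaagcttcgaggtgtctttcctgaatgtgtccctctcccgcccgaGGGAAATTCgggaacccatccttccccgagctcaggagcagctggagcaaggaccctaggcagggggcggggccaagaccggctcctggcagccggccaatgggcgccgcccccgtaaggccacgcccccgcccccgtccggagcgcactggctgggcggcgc
The letters searched, on both strands, were GGGANNTTC, part of the NF-κB consensus, TTTCNNTTT, which resembles an interferon response element, GAGGAA, which resembles a PU.1 site, and TGACGTCA, the cyclic AMP response element. P2ry12 holds GAAGTTCCC, a match to the first motif on the other strand, 50 bases before the start and TTTCCTTTT 31 bases before it. P2ry13 holds GAGGAA 48 bases before its start, and Adora2b holds GGGAAATTC 163 bases before its start. Among the upstream windows of all 32851 start sites 3.2% held GGGANNTTC, 9.4% TTTCNNTTT, 23.3% GAGGAA and 1.5% TGACGTCA. Windows were matched for 8 of the 10 genes, all but P2ry6 and Adora2a. Of the rest, Adora3 held TTCCTC, the reverse complement of GAGGAA, 28 bases before its start, and a start site of Entpd1 held AAAAAGAAA, the reverse complement form of TTTCNNTTT, 170 bases and GAGGAA 235 and 227 bases before it. A match is a run of letters and not evidence of binding.

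P2ry6 (ENSMUSG00000048779), the UDP receptor gene linked to phagocytosis by microglia, went the other way from the ADP receptors with LPS. P2ry6 had 286, 316 and 283 CPM in unshielded LPS libraries, against 179, 166 and 166 CPM in unshielded libraries without LPS. The shielded LPS libraries had 456, 456 and 350.05 CPM of P2ry6, against 182, 200.2 and 183 CPM in shielded libraries without LPS. Every LPS library lay above every library without LPS. The rise was 0.79 ± 0.11 on the log2 scale in unshielded mice (adjusted p = 8.81e-05) and 1.16 ± 0.11 in shielded mice (adjusted p = 1.7e-06). P2ry6 was lower in unshielded than in shielded mice after LPS (-0.51 ± 0.11, adjusted p = 0.00218). Without LPS the log2 fold change was -0.14 ± 0.11 with a 95% interval of -0.38 to 0.09 (adjusted p = 0.531). The difference of LPS effects, -0.37 (95% interval -0.70 to -0.04, adjusted p = 0.132), passed the threshold without shielded LPS library 3, at -0.54 (adjusted p = 0.00725), and with library totals (adjusted p = 0.0388), within 0.00725 to 0.413 over the alternatives.

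The P2X channel genes P2rx4 and P2rx7 sit 16.1 kb apart on chromosome 5 in the same orientation, with no protein-coding gene between them, and they changed in opposite directions with LPS in shielded mice. P2rx4 (ENSMUSG00000029470) encodes a calcium-permeable channel that opens at low ATP and has been tied to microglial signalling in neuropathic pain. P2rx4 had 131, 163.5 and 146.5 CPM in unshielded LPS libraries, against 151.5, 121 and 134 CPM in unshielded libraries without LPS, and these overlapped. P2rx4 stood at 148, 132.4 and 124 CPM in shielded LPS libraries, against 105, 88.4 and 93.1 CPM in shielded libraries without LPS, which did not overlap. The log2 fold change with LPS was 0.12 ± 0.11 in unshielded mice (95% interval -0.13 to 0.36, adjusted p = 0.422) and 0.50 ± 0.11 in shielded mice (adjusted p = 0.00223). The rise in shielded mice was not past the threshold with library totals, at 0.14 (adjusted p = 0.124), or without the libraries whose labels conflict, at 0.36 (adjusted p = 0.116), within 0.000238 to 0.124 over the alternatives. In unshielded mice library totals gave -0.18 (adjusted p = 0.0728; 0.0728 to 0.933 over the alternatives).

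Without LPS P2rx4 was the only gene of the 10 that was higher in unshielded than in shielded mice under the main test, by 0.51 ± 0.11 (adjusted p = 0.0118). That call was lost without shielded library 2 without LPS (adjusted p = 0.0731), unshielded library 1 without LPS (0.0785), unshielded library 3 without LPS (0.0515) or both libraries with conflicting labels (0.427), within 0.00089 to 0.427 over the alternatives. After LPS the log2 fold change was 0.13 ± 0.11, with a 95% interval of -0.12 to 0.37 (adjusted p = 0.373). The difference of its LPS effects was -0.38 (95% interval -0.73 to -0.03, adjusted p = 0.14), and without shielded LPS library 3 it passed the threshold (adjusted p = 0.0351; 0.0351 to 0.581 over the alternatives).

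P2rx7 (ENSMUSG00000029468) encodes the channel whose opening at high ATP triggers the NLRP3 inflammasome and the release of interleukin-1β. P2rx7 had 110.03, 114 and 94.1 CPM in unshielded LPS libraries, against 154.6, 165 and 156 CPM in unshielded libraries without LPS. The values in shielded mice were 92.4, 100.4 and 96.6 CPM with LPS, against 162, 178 and 148 CPM without. All LPS libraries lay below all libraries without LPS, and unshielded and shielded libraries overlapped in both states. P2rx7 fell with LPS by 0.58 ± 0.09 on the log2 scale in unshielded mice (adjusted p = 0.000342) and by 0.76 ± 0.10 in shielded mice (adjusted p = 2.01e-05). Unshielded against shielded mice gave a log2 fold change of -0.04 without LPS, with a 95% interval of -0.24 to 0.17 (adjusted p = 0.89). After LPS it was 0.14, with an interval of -0.07 to 0.34 (adjusted p = 0.241). Both intervals for P2rx7 lay within 0.34 of 0 on the log2 scale.

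Adora3 (ENSMUSG00000000562) encodes an adenosine receptor that lowers cyclic AMP through Gi proteins. Adora3 had the largest fold change of the 10 between unshielded and shielded mice and also rose with LPS. It had 29.2, 24.7 and 25.5 CPM in unshielded LPS libraries, against 6.80, 18 and 7.26 CPM in unshielded libraries without LPS. In shielded mice Adora3 had 165, 174 and 122 CPM with LPS, against 41.6, 58.4 and 43.1 CPM without. The highest unshielded library, with LPS, lay below the lowest shielded library, without LPS, and the 4 groups did not overlap. Unshielded library 2 without LPS stood well above its 2 companions. The log2 fold change of Adora3 in unshielded against shielded mice was -2.20 ± 0.33 without LPS (adjusted p = 0.0015) and -2.54 ± 0.32 after LPS (adjusted p = 0.0001). Adora3 rose with LPS by 1.35 ± 0.32 in unshielded mice (adjusted p = 0.00586) and by 1.69 ± 0.31 in shielded mice (adjusted p = 0.000663). The difference of these LPS effects was -0.34, with a 95% interval of -1.30 to 0.63 (adjusted p = 0.619). It was 0.18 once unshielded library 2 without LPS was left out. The difference without LPS stayed at -2.01 but lost its call without the libraries whose labels conflict (adjusted p = 0.0664; 8.56e-11 to 0.0664 over the alternatives). Adora3 shares 779 exonic bases, 20.9% of its exons, with Tmigd3 on the same strand, so its counts are uncertain. Tmigd3 had 318 counts over the 12 libraries, against 24614 for Adora3.

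Adora2a (ENSMUSG00000020178) and Adora2b (ENSMUSG00000018500) encode the adenosine receptors that raise cyclic AMP through Gs proteins and restrain inflammatory signalling in macrophages. Both were scarce without LPS and rose with LPS. Adora2a had 9.64, 15.1 and 12.7 CPM in unshielded LPS libraries, against 2.60, 2.07 and 2.88 CPM in unshielded libraries without LPS. In shielded mice Adora2a had 11.4, 10.1 and 11.3 CPM with LPS, against 2.18, 1.81 and 4.35 CPM without. Every LPS library lay above every library without LPS. Adora2a rose by 2.30 ± 0.29 in unshielded mice (adjusted p = 4.95e-05) and by 1.96 ± 0.29 in shielded mice (adjusted p = 7.56e-05). Adora2b had 5.54, 11.3 and 9.03 CPM in unshielded LPS libraries, against 1.09, 0.674 and 1.73 CPM in unshielded libraries without LPS. In shielded mice Adora2b had 9.16, 7.0 and 7.62 CPM with LPS, against 0.970, 0.646 and 0.650 CPM without. LPS libraries were again all above the others. Adora2b rose by 2.85 ± 0.33 in unshielded mice (adjusted p = 2.51e-05) and by 3.38 ± 0.34 in shielded mice (adjusted p = 3.27e-06), or 7.39-fold and 10.5-fold between group means. Its counts without LPS were low, 14 to 60 per library in unshielded and 20 to 45 in shielded mice.

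Neither gene passed the test between unshielded and shielded mice, and the intervals are wide. For Adora2a the log2 fold change of unshielded against shielded mice was -0.14 without LPS (95% interval -0.78 to 0.49) and 0.19 after LPS (-0.39 to 0.78). Without shielded library 3 without LPS, which held more Adora2a than its companions, the value without LPS was 0.35. For Adora2b the log2 fold change was 0.65 without LPS (-0.12 to 1.41) and 0.12 after LPS (-0.52 to 0.76). The value after LPS turned to -0.09 without unshielded LPS library 2 and to -0.01 without shielded LPS library 2. These 4 comparisons had edgeR adjusted p-values of 0.867, 0.565, 0.331 and 0.756.

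The 2 ectonucleotidase genes behaved unlike each other. Entpd1 (ENSMUSG00000048120) encodes CD39, the main ATP- and ADP-degrading enzyme on microglia. Entpd1 had 367, 372 and 360.4 CPM in unshielded LPS libraries, against 375, 405.5 and 327 CPM in unshielded libraries without LPS, which overlapped. Shielded LPS libraries had 472, 525 and 472 CPM, against 585, 666 and 555 CPM in shielded libraries without LPS, which did not overlap. All unshielded libraries lay below all shielded ones. Unshielded against shielded mice gave a log2 fold change of -0.70 ± 0.10 without LPS (adjusted p = 0.000837) and -0.42 ± 0.10 after LPS (adjusted p = 0.00555). With LPS the log2 fold change was -0.01 in unshielded mice (95% interval -0.23 to 0.21, adjusted p = 0.936) and -0.30 ± 0.10 in shielded mice (adjusted p = 0.0218). Library totals gave -0.31 in unshielded mice (adjusted p = 0.0167; 0.0167 to 0.997 over the alternatives). The fall in shielded mice no longer passed without shielded LPS library 1 (adjusted p = 0.0782), shielded LPS library 3 (0.0742), shielded library 2 without LPS (0.111) or both libraries with conflicting labels (0.183), within 0.000105 to 0.183 over the alternatives. The difference of LPS effects was 0.29 (95% interval -0.03 to 0.60, adjusted p = 0.214).

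Nt5e (ENSMUSG00000032420) encodes CD73, which makes adenosine from AMP and is scarce on resting microglia. Nt5e had 16.6, 24.4 and 13.4 CPM in unshielded LPS libraries, against 5.09, 3.42 and 6.72 CPM in unshielded libraries without LPS. With the shield Nt5e was at 4.10, 3.44 and 6.15 CPM after LPS, against 3.34, 1.45 and 2.84 CPM without LPS. The 3 unshielded LPS libraries stood above all 9 others. Nt5e rose with LPS by 1.82 ± 0.34 in unshielded mice (adjusted p = 0.00116). In shielded mice the log2 fold change was 0.83 ± 0.35, which missed the threshold (adjusted p = 0.0537). There the deviations of same-numbered libraries correlated at 0.112, 0.194 and 0.547, though the labels used here give no pairing. With a block for the replicate number the value was 0.86 (adjusted p = 0.0347). It also passed with DESeq2 (adjusted p = 0.0201), with RLE size factors (0.0463), without shielded LPS library 2 (0.0428) and without shielded library 1 without LPS (0.0346), within 0.0201 to 0.429 over the alternatives. The value was smaller with library totals (0.50, adjusted p = 0.242), without both libraries with conflicting labels (0.45, adjusted p = 0.429), without shielded LPS library 3 (0.58, adjusted p = 0.183) and when shielded library 2 without LPS was left out (0.57, adjusted p = 0.157). Nt5e was the only gene of the 10 that was higher in unshielded than in shielded mice after LPS under the main test (1.98 ± 0.35, adjusted p = 0.000708). Without LPS the log2 fold change was 0.99 ± 0.35 (adjusted p = 0.104), and DESeq2 (adjusted p = 0.0274) called it (0.0117 to 0.671 over the alternatives). The difference of the LPS effects was 0.99, with a 95% interval of -0.07 to 2.05 (adjusted p = 0.201).

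Levels of different genes were compared per kilobase of exon. In CPM per kb the order in unshielded LPS libraries was P2ry13 (185), P2ry12 (137), P2ry6 (102), Entpd1 (65.6), P2rx4 (20.9), P2rx7 (17.8), Adora3 (7.10), Adora2b (4.67), Adora2a (4.07) and Nt5e (2.11). In unshielded libraries without LPS P2ry12 (318.4) and P2ry13 (250.2) led, followed by Entpd1 (66.2) and P2ry6 (59.0). In shielded LPS libraries P2ry13 (338) led P2ry12 (228), and in shielded libraries without LPS P2ry12 (896) led P2ry13 (477). Nt5e stood last in all 4 groups, with 0.590 CPM per kb in unshielded libraries without LPS, 0.530 in shielded LPS libraries and 0.296 in shielded libraries without LPS. With the length of the longest coding transcript in place of all exons, P2ry13 and P2ry12 kept these leads over each other, while neighbours further down changed places: P2ry6 stood before P2ry12 in unshielded LPS libraries (152 against 149), and Nt5e was no longer last in either group without LPS. Summed over the 10 genes the level was 547 ± 18 CPM per kb in unshielded LPS libraries, 745 ± 138 in unshielded libraries without LPS, 884 ± 64.6 in shielded LPS libraries and 1601 ± 215 in shielded libraries without LPS (SD, n = 3 each). P2ry12 made up 25.1 ± 2.39% of this sum in unshielded LPS libraries, 42.3 ± 3.93% in unshielded libraries without LPS, 25.8 ± 2.19% in shielded LPS libraries and 55.8 ± 1.77% in shielded libraries without LPS. P2ry6 made up 18.7 ± 1.62%, 8.11 ± 1.48%, 16.4 ± 1.66% and 4.10 ± 0.314% in the same order of groups.

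Ratios within a library do not depend on how libraries are scaled against each other. The log2 ratio of P2ry12 over P2ry13 in CPM was -0.30, -0.50 and -0.47 in unshielded LPS libraries, against 0.21, 0.52 and 0.28 in unshielded libraries without LPS. In shielded mice it was -0.71, -0.54 and -0.44 with LPS, against 0.88, 1.02 and 0.83 without. The 6 LPS libraries were all below 0 and the other 6 all above it, and unshielded and shielded libraries overlapped after LPS but not without it. The log2 ratio of P2rx4 over P2rx7 was 0.26, 0.52 and 0.64 in unshielded LPS libraries, against -0.03, -0.44 and -0.22 in unshielded libraries without LPS. In shielded mice it was 0.68, 0.40 and 0.36 with LPS, against -0.62, -1.01 and -0.67 without. It too was higher in every LPS library than in every library without LPS, with unshielded and shielded libraries overlapping after LPS only. The log2 ratio of Entpd1 over Nt5e was 4.47, 3.93 and 4.75 in unshielded LPS libraries, against 6.20, 6.89 and 5.61 in unshielded libraries without LPS. In shielded mice it was 6.85, 7.25 and 6.26 with LPS, against 7.45, 8.84 and 7.61 without. The unshielded LPS libraries stood lowest, below all others. These ratios were looked at with the levels known, and they are given as a description.

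**Figure D3:**
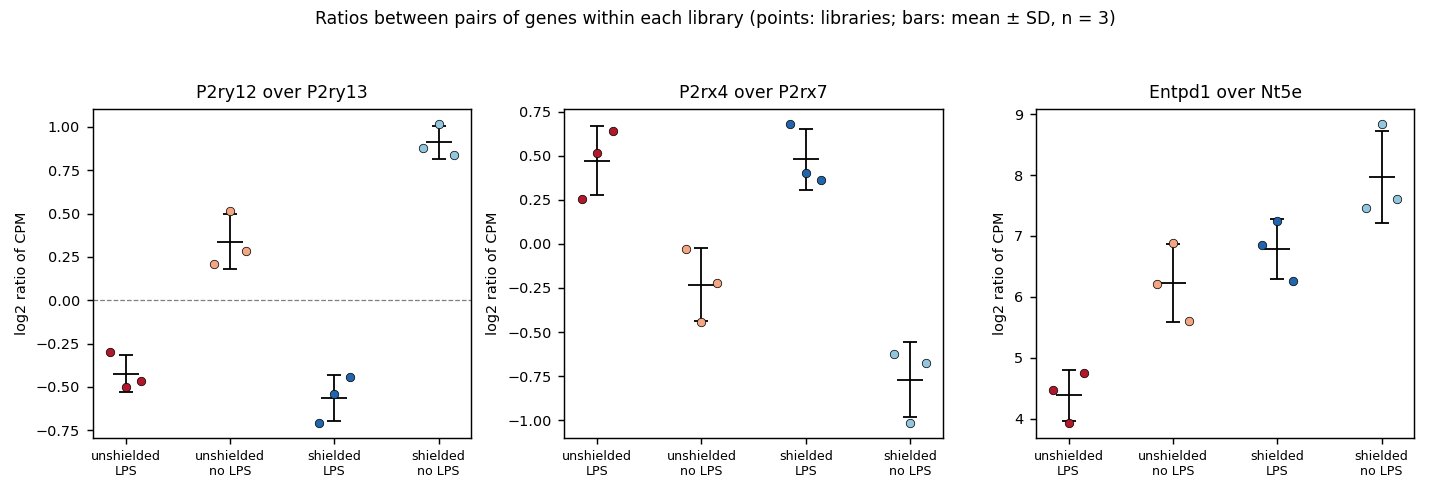
Log2 ratio of CPM (y axis) for 3 pairs of genes in each library of the 4 groups, with points for libraries and bars for the mean and SD of 3 libraries. The ratio of P2ry12 over P2ry13 lies below 0 (dashed) in the LPS libraries and above it in the others, and that of Entpd1 over Nt5e is lowest in unshielded LPS libraries. Where the ratios of the other 2 pairs cross 0 depends on gene length.

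Of 40 other genes of purine signalling, listed by function, 35 were tested. In unshielded mice 8 of the 35 rose with LPS and 9 fell, where 24.3% and 18.8% of all tested genes did. In shielded mice 10 rose and 10 fell, where 32.4% and 35.1% of all genes did. Between unshielded and shielded mice 4 were higher and 3 lower in unshielded mice without LPS, where 3.98% and 6.85% of all genes were, and 9 were higher and 8 lower after LPS, where 19.1% and 25.6% were. Those without LPS were P2rx6, Enpp1, Slc28a2 and Ada, which were higher, and P2rx1, Gnas and Kcnk13, which were lower. Of these, P2rx6 was called in 5 of 13 alternatives (adjusted p 0.0148 to 0.322), Ada in 8 (0.000503 to 0.439) and Slc28a2 in 9 (0.000566 to 0.251), and for all 3 the losses included single libraries left out and both libraries with conflicting labels left out. The LPS effect was higher in unshielded than in shielded mice for Enpp1 and Gnas and lower for Slc29a2 and Entpd6, and the calls for Gnas and Entpd6 were lost when any of several single libraries was left out (adjusted p 0.00362 to 0.228 and 0.0118 to 0.214 over the alternatives). Over the 35 genes the median log2 fold change with LPS was -0.03 in unshielded mice and -0.16 in shielded mice. For unshielded against shielded mice the medians were 0.09 without LPS and 0.15 after LPS. These lie near the medians of all tested genes given above. The Pnp symbol was not matched, and P2rx2, P2ry4, Entpd4 and Entpd8 were below the filter.

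**Figure D4:**
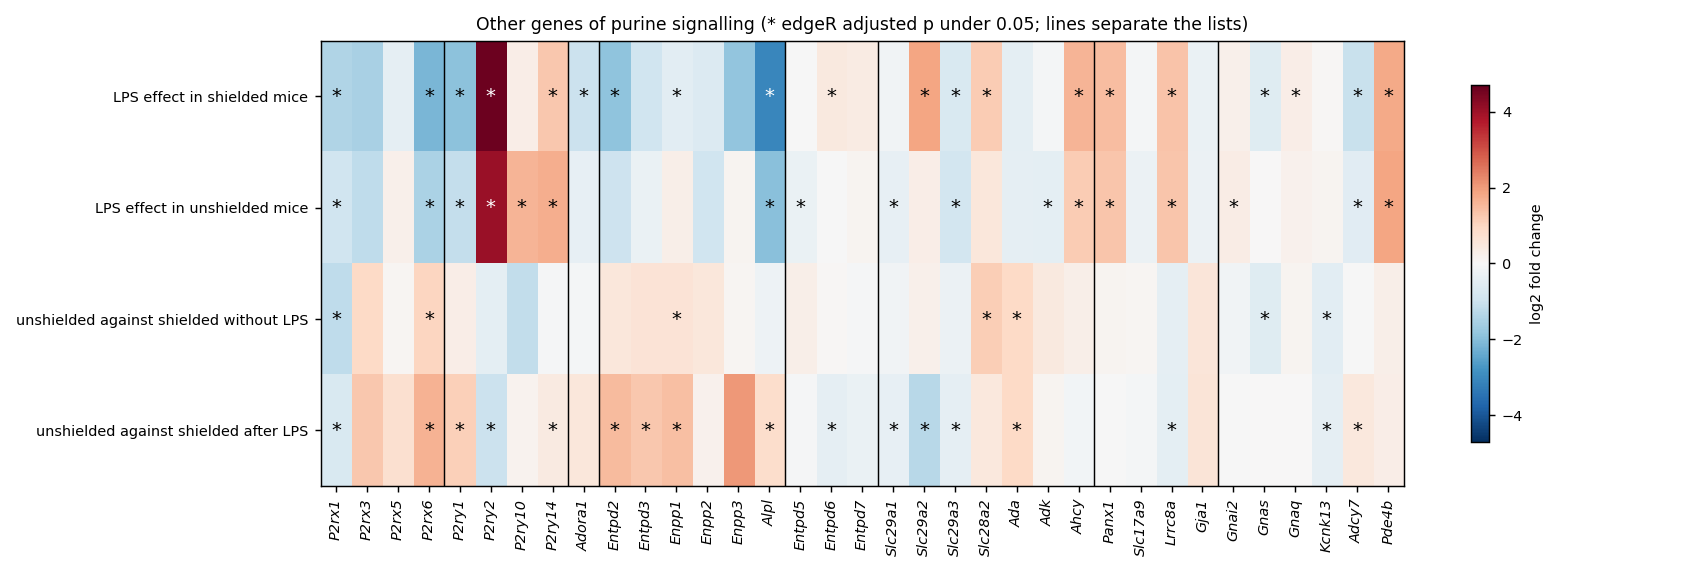
Log2 fold changes (colour) of the 35 tested genes of purine signalling outside the 10 (x axis, with lines between functional lists) in the 4 comparisons (y axis), with a star where the edgeR adjusted p was under 0.05. P2ry2 shows the strongest rise with LPS and Alpl the strongest fall.

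Of the P2Y receptor genes outside the 10, 3 of 4 tested rose with LPS in unshielded mice and 2 in shielded mice, and 1 fell in each. Of all tested genes 24.3% rose and 18.8% fell in unshielded mice, and 32.4% rose and 35.1% fell in shielded mice. P2ry2, the receptor for ATP and UTP, had 54.2 ± 13.1 CPM in unshielded LPS libraries and 3.27 ± 1.14 in unshielded libraries without LPS (SD, n = 3 each). In shielded mice it had 111 ± 36.5 CPM with LPS and 4.50 ± 0.728 without. Its rise of 4.04 ± 0.32 (adjusted p = 3.47e-06) and 4.62 ± 0.32 (adjusted p = 4.2e-07) was larger, as a point estimate, than that of any of the 10 genes in the same mice. After LPS P2ry2 was lower in unshielded than in shielded mice (-1.03 ± 0.27, adjusted p = 0.00973), a call lost with no filter on low counts (adjusted p = 0.0567; 0.000737 to 0.0567 over the alternatives). P2ry14, the receptor for UDP-sugars, rose by 1.71 ± 0.12 in unshielded mice (adjusted p = 5.24e-07) and 1.26 ± 0.12 in shielded mice (adjusted p = 1.57e-06). P2ry1, an ADP receptor, was at 0.700 ± 0.103 CPM in unshielded LPS libraries and 1.51 ± 0.0401 in unshielded libraries without LPS, and it fell with LPS by 1.11 on the log2 scale in unshielded mice and by 1.91 in shielded mice. P2ry10, a receptor for lysophosphatidylserine in spite of its name, rose in unshielded mice (1.59 ± 0.43, adjusted p = 0.00918), and its value in shielded mice was 0.30 ± 0.40 (adjusted p = 0.518).

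Of the other P2X channel genes 2 of 4 tested fell with LPS in each kind of mouse. Of all tested genes 18.8% fell in unshielded and 35.1% in shielded mice. P2rx1 had 2.46 ± 0.312 CPM in unshielded LPS libraries and 4.78 ± 1.17 in unshielded libraries without LPS, a fall of 0.95 on the log2 scale. In shielded mice P2rx1 had 4.09 ± 0.954 CPM with LPS and 10.8 ± 1.5 without, a fall of 1.40. Like P2ry12 it was also lower in unshielded than in shielded mice without LPS (-1.18 ± 0.21, adjusted p = 0.0033), though not without the libraries whose labels conflict (adjusted p = 0.196; 3.33e-06 to 0.196 over the alternatives). P2rx6, at most 2.13 CPM in any group mean, fell with LPS by 1.5 on the log2 scale in unshielded and 2.14 in shielded mice, and after LPS it was higher in unshielded mice by 1.65 ± 0.38 (adjusted p = 0.00373; 0.000927 to 0.0545 over the alternatives). Adora1, the remaining adenosine receptor gene, fell with LPS in shielded mice (-1.0 ± 0.32, adjusted p = 0.0164), unlike the other 3 adenosine receptors, and stood at -0.39 ± 0.31 in unshielded mice (adjusted p = 0.327). The Adora1 call was lost with no filter on low counts (adjusted p = 0.0555), when shielded library 3 without LPS was left out (0.057) and when both libraries with conflicting labels were (0.108), within 0.000525 to 0.108 over the alternatives.

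Among 6 other nucleotide-hydrolysing ectoenzymes tested, none rose with LPS, where 24.3% of all genes rose in unshielded and 32.4% in shielded mice. Of the 6, 1 fell in unshielded mice, where 18.8% of all genes fell, and 3 in shielded mice, where 35.1% fell. Alpl, an alkaline phosphatase that can strip phosphates down to adenosine, had 2.17 ± 0.864 CPM in unshielded LPS libraries and 8.47 ± 0.696 in unshielded libraries without LPS. In shielded mice Alpl had 1.22 ± 0.148 CPM with LPS and 10.1 ± 3.38 without. It fell with LPS by 1.96 on the log2 scale in unshielded mice (adjusted p = 0.000183) and fell by 3.05 in shielded mice (adjusted p = 4.25e-06), opposite to Nt5e in unshielded mice. Entpd2, which turns ATP into ADP, was scarce, with 0.167 ± 0.166 CPM in shielded LPS libraries and 0.63 ± 0.126 in shielded libraries without LPS. It fell with LPS in shielded mice (-1.91 ± 0.52, adjusted p = 0.00661), and by more without shielded LPS library 3 (-3.13, adjusted p = 0.000282; 0.000282 to 0.0355 over the alternatives). At such a level the size of the fall is uncertain. Entpd3, at most 0.882 CPM in any group mean, was higher in unshielded than in shielded mice after LPS (1.28 ± 0.43, adjusted p = 0.03). That call held in 8 of 13 alternatives (adjusted p 0.00617 to 0.123). Enpp1, which cuts ATP to AMP and pyrophosphate, had 34.8 ± 3.89 CPM in unshielded LPS libraries and 13.2 ± 2.05 in shielded LPS libraries. It was higher in unshielded mice by 0.64 ± 0.12 without LPS (adjusted p = 0.00393) and by 1.40 ± 0.12 after LPS (adjusted p = 6.53e-06), in contrast to Entpd1. The call without LPS was lost without the libraries whose labels conflict (adjusted p = 0.207; 0.000122 to 0.207 over the alternatives). Its LPS effect was 0.28 ± 0.12 in unshielded mice (adjusted p = 0.0692) and -0.48 ± 0.12 in shielded mice (adjusted p = 0.00404). The difference of 0.76 ± 0.17 passed the test (adjusted p = 0.0122), though not without the libraries whose labels conflict (adjusted p = 0.0777; 0.00298 to 0.0777 over the alternatives). Of 3 intracellular relatives of Entpd1 tested, Entpd6 rose with LPS in shielded mice (0.45 ± 0.10, adjusted p = 0.00128), but not with library totals (adjusted p = 0.463; 0.00011 to 0.463 over the alternatives), Entpd5 stood at -0.01 ± 0.10 and Entpd7 at 0.38 ± 0.17 (adjusted p = 0.966 and 0.0598). In unshielded mice Entpd5 fell by 0.33 on the log2 scale (adjusted p = 0.0223; 0.000323 to 0.123 over the alternatives), and with library totals the value was -0.62.

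Of the 7 genes of adenosine uptake and metabolism tested, 1 rose and 3 fell with LPS in unshielded mice, where 24.3% and 18.8% of all genes did. In shielded mice 3 rose and 1 fell, where 32.4% and 35.1% of all genes did. Slc29a2, an equilibrative nucleoside transporter, had 6.65 ± 0.673 CPM in unshielded LPS libraries and 5.32 ± 0.775 in unshielded libraries without LPS, a log2 fold change of 0.32 ± 0.18 (adjusted p = 0.171). In shielded mice Slc29a2 had 16.3 ± 3.91 CPM with LPS and 4.56 ± 0.264 without, a rise of 1.84 ± 0.19 (adjusted p = 3.31e-06). The 2 effects differed by -1.51 ± 0.26, unshielded minus shielded (adjusted p = 0.00367), though not past the threshold without the libraries whose labels conflict (adjusted p = 0.0766; 8.59e-06 to 0.0766 over the alternatives). Slc29a3, a nucleoside transporter of lysosomes, fell by 0.86 in unshielded and 0.73 in shielded mice. Ahcy, which splits S-adenosylhomocysteine into adenosine and homocysteine, rose by 1.21 ± 0.18 in unshielded and 1.6 ± 0.18 in shielded mice. Slc28a2, a concentrative nucleoside transporter, rose in shielded mice (1.21 ± 0.28, adjusted p = 0.00203), while in unshielded mice Slc29a1, the main equilibrative transporter, fell by 0.39 on the log2 scale and Adk, adenosine kinase, by 0.45 (adjusted p = 0.00204 and 0.0367). The Adk call was lost under several alternatives, with adjusted p-values of 0.00606 to 0.126. Ada, which deaminates adenosine, was higher in unshielded than in shielded mice after LPS (0.95 ± 0.23, adjusted p = 0.00439), a call lost with the replicate block (adjusted p = 0.0599; 0.000313 to 0.0599 over the alternatives).

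Of 4 genes of ATP release, Panx1, a channel subunit through which ATP leaves cells, and Lrrc8a, a subunit of volume-regulated channels, rose with LPS. Panx1 had 16.4 ± 2.34 CPM in unshielded LPS libraries and 6.62 ± 1.01 in unshielded libraries without LPS, and 16.5 ± 2.32 with LPS and 6.09 ± 0.573 without LPS in shielded mice. The log2 fold change was 1.30 ± 0.15 in unshielded and 1.44 ± 0.16 in shielded mice for Panx1, and 1.29 ± 0.16 and 1.33 ± 0.16 for Lrrc8a. Slc17a9, the vesicular nucleotide transporter, stood at -0.29 ± 0.13 and -0.10 ± 0.13, and Gja1, a connexin typical of astrocytes, at -0.26 ± 0.27 and -0.30 ± 0.28, none of them past the threshold. Among 6 signalling partners, Pde4b, which breaks down cyclic AMP, rose by 1.84 ± 0.19 in unshielded and 1.79 ± 0.19 in shielded mice. Adcy7, an adenylyl cyclase that makes cyclic AMP, fell by 0.55 on the log2 scale in unshielded mice and by 1.04 in shielded mice. Of the G protein subunits, Gnas, the stimulatory one that the products of Adora2a and Adora2b couple to, fell with LPS in shielded mice (-0.58 ± 0.10, adjusted p = 0.000367) and was lower in unshielded than in shielded mice without LPS (-0.59 ± 0.10, adjusted p = 0.00283), though not when the libraries whose labels conflict were left out (adjusted p = 0.174; 0.000154 to 0.174 over the alternatives). Gnai2, the inhibitory one, rose in unshielded mice (0.36 ± 0.11, adjusted p = 0.0159), but not with library totals (0.06, adjusted p = 0.402). It also lost its call with the replicate block (adjusted p = 0.0536) and without unshielded library 2 (0.0893) or 3 (0.0945) without LPS. The Gnai2 call held in 9 of 13 alternatives (adjusted p 0.00781 to 0.402). Gnaq, a further subunit, rose with LPS in shielded mice (0.31 ± 0.10, adjusted p = 0.0169), but not with library totals (-0.04, adjusted p = 0.508). The Gnaq call held in 8 of 13 alternatives (adjusted p 0.00583 to 0.508). Kcnk13, the potassium channel THIK-1 that works downstream of P2Y12 in microglia, had log2 fold changes with LPS of 0.12 ± 0.09 and 0.05 ± 0.09 (adjusted p = 0.307 and 0.637). Like P2ry12, Kcnk13 was lower in unshielded than in shielded mice, with log2 fold changes of -0.48 ± 0.09 without LPS (adjusted p = 0.00489) and -0.41 ± 0.09 after LPS (adjusted p = 0.00353). With library totals, calls that grew by more than 1.5 times included the LPS effects of Enpp1 (-0.82) and Gnas (-0.94) in shielded mice and of Slc29a1 (-0.69), Adk (-0.74) and Adcy7 (-0.85) in unshielded mice. Without the libraries whose labels conflict the difference of Kcnk13 without LPS was -0.45 (adjusted p = 0.188; 0.00074 to 0.188 over the alternatives).

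Likeness of pattern was measured as the root mean square difference in log2 CPM over the 12 libraries, after each gene was centred on its own mean, for the gene of each class with the highest mean level, against 9215 named genes. Nearest to P2ry12 were Tmem144 (0.16), Gmpr (0.208) and Snn (0.215). P2rx7 was nearest to Setd3 (0.0806), Cenpo (0.087) and Tbxas1 (0.0897), and Entpd1 to Rnaset2b (0.0679), Cgrrf1 (0.0763) and Sash3 (0.0936). For Adora3 the nearest genes were farther off, Cd101 (0.412), Ptgfrn (0.426) and Slc24a3 (0.436). Among the 10 genes themselves the smallest distance was that of P2ry13 and Entpd1, at 0.246, followed by P2rx7 and Entpd1 at 0.409 and P2ry6 and P2rx4 at 0.474. The neighbours P2ry12 and P2ry13 were 0.605 apart, the neighbours P2rx4 and P2rx7 0.548, and the widest distance, between P2ry12 and Adora2b, was 2.52.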

How the data were processed

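Per the labels' protocols, RNA of cells sorted with CD11b beads was extracted with the RNAqueous Micro kit, amplified linearly and sequenced. Per the submitters' processing notes the authors used FastQC, STAR, HTSeq and the mouse build mm9; versions and strand setting: not given in the sources used here. Raw read counts per gene were deposited by the authors as whole numbers in a table of 36491 genes and 12 libraries, with no normalisation. No row totalled under 2 counts, and 254 identifiers had no symbol.

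The counts were fitted in one edgeR 4.0.16 quasi-likelihood model (R 4.3.3, robust, TMM scaling, 1 term for each of the 4 groups) after filterByExpr with a minimum count of 10 and a minimum total of 15. That left 18875 genes, tested in 5 comparisons, two-sided, with Benjamini-Hochberg adjustment over all of them and a threshold of 0.05. In the text an adjusted p comes from this test unless another is named, log2 fold changes carry their SE and intervals cover 95%. DESeq2 1.42.0 was an alternative. CPM are TMM-scaled. Lengths (exon union and longest coding transcript) and overlaps came from GENCODE vM21 on GRCm38, not from the authors' mm9 annotation, and upstream sequences from RefSeq on GRCm38.p6.

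The alternatives were RLE size factors, library totals without TMM, no low-count filter, DESeq2, only the groups compared, the replicate number as a block, leaving out each library in turn, leaving out both libraries with conflicting labels and grouping those by the treatment field. Libraries of a group differed by at least 12.5 times the chi-square of counting noise per degree of freedom, so none was counted as a repeat. Nothing says that the libraries of a group came from separate mice, so a p-value here measures library-to-library spread, which may be technical. The labels used here give no pairing of libraries. For the shielded LPS and shielded no-LPS groups the deviations of same-numbered libraries from the group means correlated at 0.112, 0.194 and 0.547. All were above 0.1, the limit used here, which does not establish a pairing. Counts were lowest for Adora2b, and Adora2a and Nt5e were the next lowest; such low counts carry counting error besides the spread.

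The 10 genes and all lists were chosen with earlier results of these data known. A further microglia marker is not reported here. Named genes are the 10, and from each functional list the genes past the threshold, at most the 4 of lowest p per direction, and all of a list with fewer than 6 genes. For likeness, the gene of each class with the highest mean CPM was set against all named genes whose log2 CPM averaged 3 or more.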

Additional observations from a re-analysis of the deposited data

How the results depend on the processing

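Of the log2 fold changes of the 10 genes over the 5 comparisons, none that passed the threshold changed sign under any alternative. Leaving out 1 library gave 360 values, of which 333 kept their direction and their side of the threshold, 8 lost a call, 5 gained one and 14 that were not called changed sign. RLE size factors kept 49 of 50 values, no filter 48, DESeq2 47, library totals and the replicate block 46 each, and fitting only the groups compared 40 of 40.

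Without both libraries whose labels conflict, which leaves 1 shielded library without LPS that is assumed to vary like the other groups, 42 of 50 values were kept. Genes called for LPS in shielded mice then numbered 8369, against 12738, and called genes among the 10 numbered 6, against 9. Between unshielded and shielded mice without LPS they numbered 292, against 2043, with 3 of the 10, against 5, and for the difference of LPS effects 148, against 2512. Grouping both libraries by the treatment field gave 0 called genes, and thus 0 of the 10, for LPS in shielded mice, 117 genes, against 8128, and 0 of the 10, against 8, for LPS in unshielded mice, 0 genes and 0 of the 10 between unshielded and shielded mice without LPS, 1464 genes, against 8423, and 4 of the 10, against 6, after LPS, and 0 genes for the difference. That grouping joins libraries whose LPS-response genes differ as given in the report.

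Leaving out 1 library gave 1094 to 1661 genes between unshielded and shielded mice without LPS and 1615 to 6391 genes for the difference of LPS effects, with 0 to 2 of the 10; the highest came without shielded LPS library 3, and the cause was not tested. No filter gave 1571 genes for the difference. The count among the 10 in the difference was 1 with no filter, with library totals, with DESeq2 and with the replicate block. With library totals 956 of all genes had a higher and 1995 a lower LPS effect in unshielded mice. The replicate block gave 3405 genes without LPS. By the labels used here, same-numbered libraries share only a number. Outside the LPS effect in shielded mice, their correlations were not all above 0.1. They were -0.115, -0.0943 and 0.0199 for LPS in unshielded mice, 0.14, -0.0165 and 0.123 without LPS and -0.264, 0.152 and 0.478 after LPS. Beside Nt5e in shielded mice, the block moved the calls of P2ry12 in the difference (0.0443) and of Nt5e without LPS (0.0117, 0.0117 to 0.671 over the alternatives), and no other call of the 10.

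Counts of 14 to 60 per library for Adora2b without LPS limit its precision.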
